A study of Mus musculus with 6 samples.

Results

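Among the genes of an RNA sequencing table from Bv2 cells, 76 were abundant loci that carry only a provisional name. They were chosen by name and by their measured level: the symbol is Gm followed by digits or ends in Rik, and the mean over the 6 libraries was at least 5 FPKM (fragments counted per unit of exon length and of library size). The table lists 1228 genes, of which 345 have such a name, 268 of them with a mean below the minimum and 1 more left out by the rule. Just inside the minimum were Gm29126 at a mean of 5.04, Gm16104 at 5.17 and Gm17110 at 5.40 FPKM, and just outside it were Gm5529 at 4.98, Gm24996 at 4.88 and Gm47077 at 4.84 FPKM.

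Bv2 is an immortalised mouse microglial line, labelled here as wild type microglia. The 3 control libraries came from cells labelled control and the 3 others from cells after oxygen and glucose deprivation with reperfusion (OGD/R), a culture model of ischemia: 30 min in pure nitrogen, 2 h without glucose or serum under 1% oxygen, then 24 h in standard medium with serum. The labels' protocol also speaks of an earlier infection without saying which cells it applies to, and gives no account of medium changes in control cells. The labels name no separate cultures behind the replicates, so a p-value here reflects only how far these samples spread, and that spread may be technical. Only 2 of 12 microglial markers looked up, Cx3cr1 and P2ry12, are among the listed genes, too few to check the labelled cell type.

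Gm symbols are given to gene models predicted from sequence, and Rik symbols to full-length cDNA clones of the RIKEN project whose function was not known when they were named. Many are long non-coding RNAs transcribed from the strand opposite a protein-coding gene, others are processed pseudogenes, which arise when an mRNA is copied back into the genome, or nuclear copies of mitochondrial DNA. Such loci share bases with another gene, either on the other strand or as a near-copy elsewhere, so a read can fit more than one annotation. Whether the authors' counting used strand, and how it treated reads that fit several places, is not stated in the labels, and overlapping loci and near-copies are therefore uncertain throughout.

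The sequences show how close these neighbours are. Gm11175 lies wholly inside the coding sequence of Jund on the other strand, and the 30 bases from position 257 of its transcript are the reverse complement of the 30 bases from position 847 of the Jund transcript:
Gm11175: tcgatgggcgacagcggagggctgtcgccg
Jund: cggcgacagccctccgctgtcgcccatcga

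In 3 loci that are near-copies, a single base separates the locus from the gene it matches over its whole length. Positions are counted from 1 at the 5′ end of the locus's transcript, the capital marks the base that differs, and the base of the locus is written first. Gm28438 differs from the mitochondrial mt-Nd3 by C3T in 345 nt, Gm48990 from Baz1a by T363C in 423 nt, and Gm7367 from Ubald2 by A436G in 492 nt:
Gm28438: atCaacctgtacactgt
mt-Nd3: atTaacctgtacactgt
Gm48990: cttggactccacgtTtcacccagtactgt
Baz1a: cttggactccacgtCtcacccagtactgt
Gm7367: ccacgtggccccccAgagcatcgcagggg
Ubald2: ccacgtggccccccGgagcatcgcagggg

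Against the control libraries, 26 of the 76 loci were higher after OGD/R and 45 were lower by limma on log2(FPKM + 1), with 5 not past an adjusted p of 0.05. All 76 were among the 852 genes tested. These shares have to be read against the tested genes of the whole table, of which 97.3% were called, 46.6% as higher and 50.7% as lower. How the listed genes were chosen is not given, but by their values they seem to have been picked for about a 2-fold difference on the same samples. The smallest ratio of group means among the loci was 1.96, for Gm22953. Of the loci, 93.4% were called, 34.2% as higher and 59.2% as lower. The libraries of the groups did not overlap in 67 loci (88.2%), against 95.1% of tested genes. On the log2(FPKM + 1) scale, 55 loci (72.4%) were called with at least a 2-fold difference, against 53.9%. That measure is not the ratio of group means given below for single loci. With pseudocounts of 0.1 and 0.01 in place of 1, the count was 64 and 67 loci. Among the 347 other tested genes with a mean of at least 5 FPKM, 46.7% were called higher and 51.3% lower. Of them, 74.9% were called with at least a 2-fold difference on the log2(FPKM + 1) scale. This comparison was chosen after seeing the data. The median log2 fold change was -0.96, against -0.68 over all genes tested. The latter include genes with means down to 1 FPKM, whose changes this scale understates, and no median was taken at matched levels. These shares and medians are given as a description, and their differences were not tested. The adjusted p and the lack of overlap given below for single loci carry the same limit, as the genes seem to have been picked on these libraries. The 126 tested loci with provisional names but a lower mean had 53 higher and 67 lower calls.

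**Figure D1:**
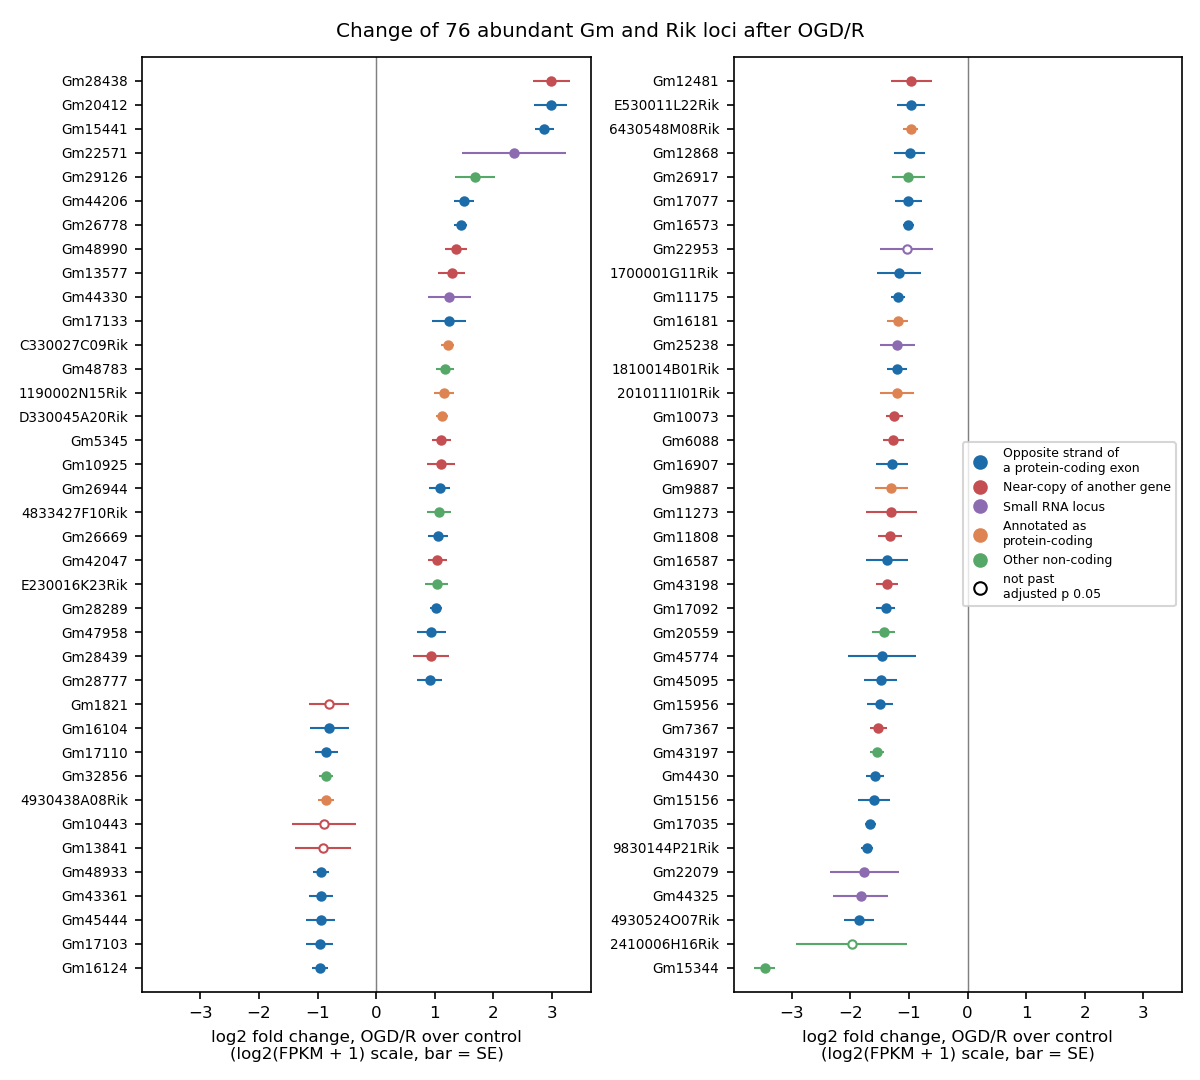
Log2 fold change of each of the 76 loci, OGD/R over control on the log2(FPKM + 1) scale, with its standard error as a bar (3 libraries a group). Colour gives the class of the locus, and open points are the 5 loci not past the threshold; values run from -3.46 for Gm15344 to 2.99 for Gm28438.

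By annotation, 35 loci were non-coding with exons opposite an exon of a protein-coding gene, 17 were near-copies of another gene, 6 were small RNA loci, 8 were annotated as protein-coding and 10 were other non-coding loci. A near-copy here means at least 90% identity over at least 50% of the longest transcript. Each locus was put in the first class it met, in the order small RNA, near-copy, protein-coding, opposite strand and other, so Gm22953, which also meets the near-copy limits, counts as a small RNA. Including other classes, 43 loci had exons opposite a protein-coding exon. The loci were short, with a median of 677 nt of exon against 3151 nt over all tested genes. Steps between low FPKM values put the control libraries at 7626000 to 8250000 counted units and the OGD/R libraries at 8036000 to 8666000, a unit being what 1 counted read or read pair adds. The 76 loci together took 0.268% to 0.344% of the units in control and 0.213% to 0.235% after OGD/R, and 45 of them had under 50 units in at least 1 library.

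For 25 loci the table also lists a gene outside the set whose exons overlap theirs, giving 25 pairs, and in all 25 pairs the locus and the gene had changes of the same sign, 6 higher and 19 lower. In 24 pairs the gene lay on the opposite strand; the exception is Gm15344. The ratio of the locus's FPKM to that of its gene varied by less than 1.5 times over the 6 libraries in 10 pairs and by less than 2 times in 18. Since both genes of a pair seem to have been picked for a difference in these libraries, the shared sign is a description.

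**Figure D2:**
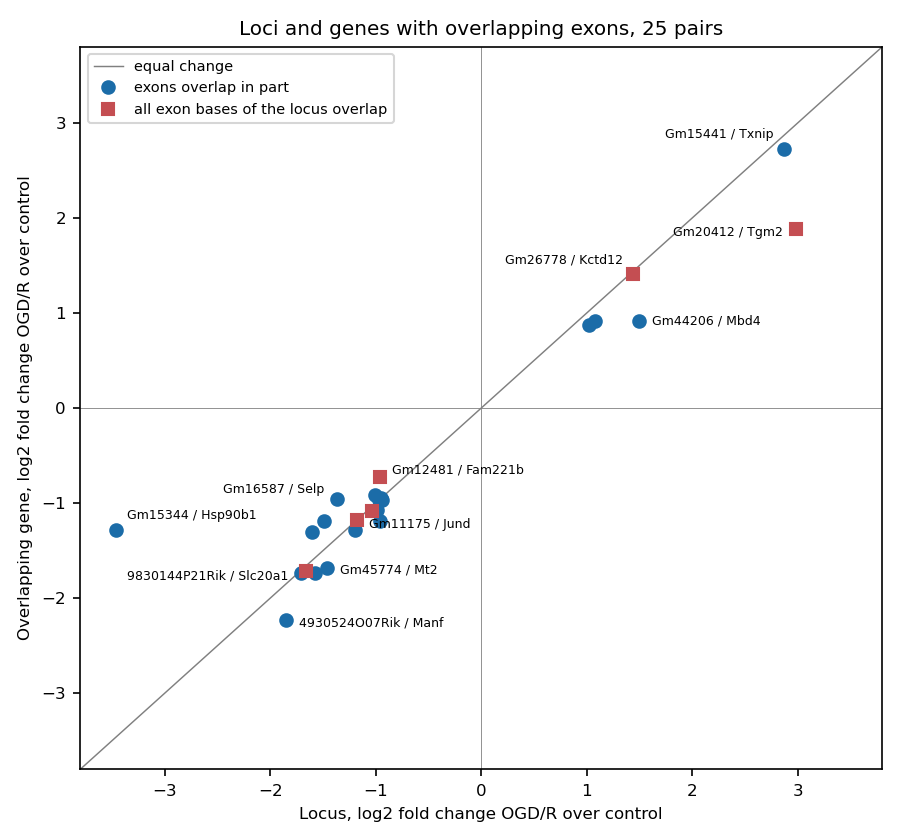
Log2 fold change after OGD/R of 25 loci (horizontal axis) and of the gene whose exons they overlap (vertical axis), both on the log2(FPKM + 1) scale. All 25 points lie in the lower left or upper right quadrant, and Gm15344 with Hsp90b1 lies farthest from the line of equal change.

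Among the higher loci, the most abundant pair was Gm15441 with Txnip, which encodes thioredoxin-interacting protein, an arrestin that restrains thioredoxin and glucose uptake. Gm15441 (ENSMUSG00000074398, chr3:96555765-96566801, minus strand) stood at 14.9, 19.8 and 20.2 FPKM in control and at 131, 128 and 160 FPKM after OGD/R. Every OGD/R library was above every control library. It rose 7.62-fold by the group means, with a log2 fold change of 2.87 ± 0.16 (SE; limma adjusted p = 4.5e-05). Txnip itself had 21.6, 33.6 and 29.9 FPKM in control and 174, 179 and 224 FPKM after OGD/R. Of the exon bases of Gm15441, 36.2% lie opposite Txnip exons, and its FPKM was 0.590 to 0.753 times that of Txnip in every library.

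Gm20412 and Gm26778 lie wholly on the exons of a gene on the other strand. Gm20412 (ENSMUSG00000092283, chr2:158117154-158117905, plus strand), opposite the transglutaminase gene Tgm2, was close to absent in control with 1.44, 0.19 and 1.24 FPKM and reached 12.8, 15.7 and 12.8 FPKM after OGD/R. That rise, 14.4-fold by the means (limma, log2 change 2.98 ± 0.28 SE, adjusted p = 0.00016), rests on 1 to 7 units per control library against 65 to 84 per OGD/R library. Tgm2 had 0.37 to 1.10 FPKM in control and 4.41 to 5.95 after OGD/R. The ratio of Gm20412 to Tgm2 ran from 0.288 to 3.35, both in control libraries. Gm26778 (ENSMUSG00000097142, chr14:102978220-102982528, plus strand) covers Kctd12, which encodes an auxiliary subunit of GABA-B receptors, and was counted at 12.8, 13.1 and 11.3 FPKM in control and 38.7, 34.6 and 32.5 FPKM after OGD/R. Its groups were far apart, at 2.85-fold (limma adjusted p = 0.00011), and its ratio to Kctd12 stayed between 1.12 and 1.3.

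The other 3 higher pairs involved genes of DNA repair, transcription and mRNA processing. Gm44206 (ENSMUSG00000107429, chr6:115824499-115842525, plus strand), opposite the DNA glycosylase gene Mbd4, had 2.12, 1.97 and 3.10 FPKM in control and 9.56, 6.98 and 9.21 FPKM after OGD/R. It rose 3.58-fold by the means (limma adjusted p = 0.0003), while Mbd4 went from a mean of 1.92 ± 0.118 to 4.52 ± 0.525 FPKM (SD, n = 3). Gm28289 (ENSMUSG00000101014, chr10:14149084-14154446, minus strand), whose exons overlap the zinc finger gene Hivep2, had 2.90, 3.47 and 3.33 FPKM in control and 7.51, 7.87 and 7.33 FPKM after OGD/R. This rise of 2.34-fold (limma adjusted p = 0.00017) came from 7 to 9 units per control library. Gm26944 (ENSMUSG00000098066, chr7:92639739-92647442, plus strand) overlaps Pcf11, a factor of mRNA 3′ end cleavage, and was at 4.33, 5.75 and 3.31 FPKM in control and 11.0, 9.14 and 10.9 FPKM after OGD/R (2.32-fold, limma adjusted p = 0.0013). In each of the 3, control and OGD/R libraries did not overlap.

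The most abundant of the loci called lower was 1810014B01Rik (ENSMUSG00000097412, chr10:86685525-86694806, plus strand), annotated as a transcribed pseudogene that overlaps Hsp90b1, the gene of the endoplasmic reticulum chaperone GRP94. It had 274, 389 and 410 FPKM in control and 150, 158 and 152 FPKM after OGD/R. The OGD/R libraries lay close together and below every control library, of which the first was the lowest. The fall was 2.33-fold (limma, log2 change -1.20 ± 0.17 SE, adjusted p = 0.00062), and the ratio to Hsp90b1 was 0.664 to 0.827. Only 15.6% of its exon bases face Hsp90b1 exons.

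On the same strand as Hsp90b1 and inside its span lies Gm15344 (ENSMUSG00000084899, chr10:86692119-86693095, minus strand), annotated as a processed transcript, with 20.0% of its exon bases on Hsp90b1 exons. It had 23.6, 29.4 and 20.6 FPKM in control and 0.89, 1.68 and 1.37 FPKM after OGD/R. This was the largest fall among the 76 loci, 18.6-fold by the means (limma, log2 change -3.46 ± 0.18 SE, adjusted p = 4.4e-05), on 66 to 102 units in control and 3 to 6 after OGD/R, per library. Hsp90b1 fell less, from 494 ± 75.0 to 201 ± 15.6 FPKM (SD, n = 3). Gm15344 was 0.0366 to 0.0579 times Hsp90b1 in control and 0.00436 to 0.00783 times after OGD/R, so the ratio itself did not overlap between the groups. No other of the 25 pairs had a ratio that varied as much, 13.3-fold between the highest and lowest library. Gm20412 with Tgm2 came close at 11.6-fold.

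Gm17035 (ENSMUSG00000091479, chr15:66929607-66931107, plus strand) lies wholly on exons of Ndrg1, a gene known for its induction by low oxygen. It was at 383, 378 and 387 FPKM in control and 121, 119 and 120 FPKM after OGD/R. Replicates differed by little, and the fall of 3.19-fold (limma, log2 change -1.66 ± 0.09 SE, adjusted p = 4.4e-05) was far beyond their spread. Ndrg1 fell from 63.1, 66.8 and 65.3 FPKM to 18.5, 19.3 and 19.2 FPKM, and the ratio of the locus to the gene stayed between 5.67 and 6.55.

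Gm11175 (ENSMUSG00000080058, chr8:70699162-70700080, minus strand), whose bases are shown above beside those of the AP-1 gene Jund, had 191, 166 and 156 FPKM in control and 78.7, 77.2 and 68.7 FPKM after OGD/R. It fell 2.28-fold (limma adjusted p = 0.00019) with no overlap between groups. Jund fell from 127, 111 and 103 to 50.5, 51.6 and 45.9 FPKM. The ratio of the locus to Jund was 1.49 to 1.56 over the 6 libraries, the steadiest of the 25 pairs.

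A pair of loci flank and overlap Slc20a1, the gene of a sodium-dependent phosphate transporter. 9830144P21Rik (ENSMUSG00000087528, chr2:129205958-129230579, minus strand) had 32.8, 28.7 and 31.1 FPKM in control and 9.35, 8.70 and 8.10 FPKM after OGD/R, a fall of 3.54-fold (limma, log2 change -1.71 ± 0.10 SE, adjusted p = 5.7e-05). Gm4430 (ENSMUSG00000103009, chr2:129197252-129199194, minus strand), whose start lies 430 nt from that of Slc20a1, had 27.5, 20.2 and 21.9 FPKM in control and 8.33, 6.69 and 6.24 FPKM after OGD/R (3.27-fold, limma adjusted p = 0.00018). In both the OGD/R libraries were all below the control libraries. Slc20a1 fell alongside from 130 ± 6.97 to 38.2 ± 1.46 FPKM (SD, n = 3).

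4930524O07Rik (ENSMUSG00000090207, chr9:106891547-106895182, plus strand) starts 432 nt from Manf, the gene of a secreted protein of the endoplasmic reticulum stress response, on the other strand. Of its exon bases 7.0% face Manf exons, while 45.8% face exons of Dock3, which is not listed. The locus had 12.3, 22.3 and 20.9 FPKM in control and 3.69, 3.55 and 5.82 FPKM after OGD/R. It fell 4.25-fold (limma, log2 change -1.85 ± 0.26 SE, adjusted p = 0.00065). Manf fell from 62.8, 106 and 117 to 17.9, 17.9 and 21.2 FPKM. The first control library was the lowest of the controls for both genes, and both still separated the groups. Rbm15b, an RNA-binding protein gene whose start is within 5 kb, fell from 16 ± 0.631 to 7.05 ± 0.612 FPKM (SD, n = 3).

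**Figure D3:**
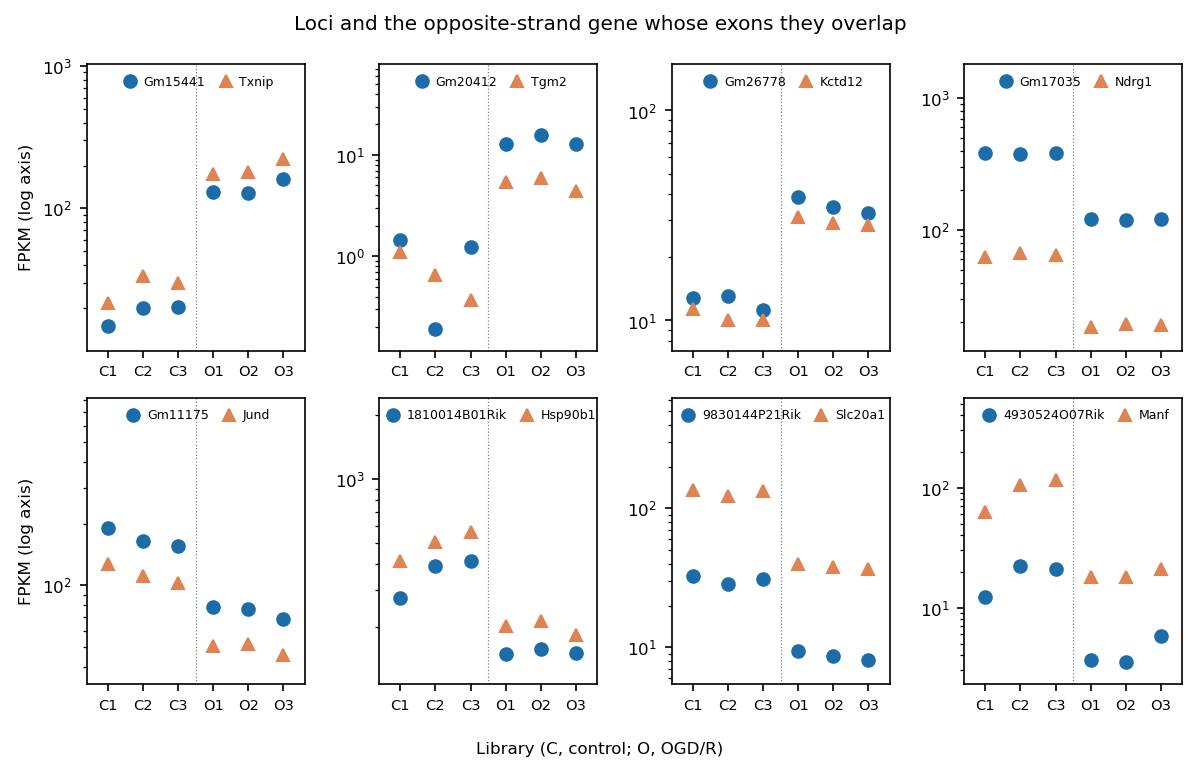
FPKM (log axes, each panel on its own scale) in the 6 libraries for 8 loci (circles) and the opposite-strand gene whose exons they overlap (triangles). In each panel both genes move the same way after OGD/R; Gm11175 stays 1.49 to 1.56 times Jund, while Gm20412 in control sits at 1 to 7 counted units.

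Further lower pairs involved genes of lipid, ion and sugar transport. Gm15956 (ENSMUSG00000086935, chr18:12193768-12198675, plus strand), opposite the lysosomal cholesterol transporter gene Npc1, had 52.8, 44.2 and 47.0 FPKM in control and 19.6, 11.3 and 19.8 FPKM after OGD/R (2.84-fold lower, limma adjusted p = 0.00075). Gm12868 (ENSMUSG00000085505, chr4:119133749-119138801, minus strand), opposite the glucose transporter gene Slc2a1, was at 142, 82.9 and 82.1 FPKM in control and 62.1, 49.6 and 39.0 FPKM after OGD/R. Its groups did not overlap, the first control library was the highest, and the fall of 2.04-fold (limma adjusted p = 0.01) was not called after upper quartile scaling (adjusted p = 0.056). Slc2a1 had the same high first control library, 90.8 FPKM against 59.4 and 66.1, and 30.3 to 35.3 FPKM after OGD/R. Gm43361 (ENSMUSG00000106375, chr5:122496159-122500848, plus strand), opposite the calcium pump gene Atp2a2, had 13.5, 11.9 and 12.1 FPKM in control and 7.59, 6.90 and 4.11 FPKM after OGD/R (2.02-fold lower, limma adjusted p = 0.0042). Atp2a2 was far more abundant, at 168 to 185 FPKM in control and 78.1 to 97.8 after OGD/R.

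At the X-linked Ptchd1, a gene with a patched-like domain, Gm15156 (ENSMUSG00000084932, chrX:155622789-155623361, plus strand) had 15.9, 8.43 and 11.6 FPKM in control and 3.28, 4.25 and 2.21 FPKM after OGD/R. It fell 3.70-fold (limma, log2 change -1.60 ± 0.27 SE, adjusted p = 0.0012) without overlap, on 8 to 15 units per OGD/R library. Gm16587 (ENSMUSG00000090081, chr1:164143432-164146366, minus strand), opposite the P-selectin gene Selp, had 5.44, 14.9 and 14.1 FPKM in control and 2.74, 3.69 and 4.15 FPKM after OGD/R (3.26-fold lower, limma adjusted p = 0.0093). The first control library was again the lowest of its group, although Selp itself had an even 2.78, 2.91 and 3.39 FPKM there. Gm17077 (ENSMUSG00000090357, chr7:30955825-30958004, plus strand) overlaps Lsr, a lipoprotein receptor gene, by 25 nt and had 61.2, 45.6 and 37.1 FPKM in control and 20.5, 29.2 and 19.9 FPKM after OGD/R (2.07-fold lower, limma adjusted p = 0.0047). Of its exon bases 9.0% face Lsr exons, while 59.9% face exons of Usf2, which is not listed and starts 978 nt away. The FPKM of Gm17077 was 20.5 to 70.8 times that of Lsr, the widest gap in level among the opposite-strand pairs. Lsr itself had only 5 to 37 units per library.

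Gm17103 (ENSMUSG00000091238, chr16:38569323-38573300, minus strand), opposite the transmembrane protein gene Tmem39a, had 19.2, 23.4 and 27.7 FPKM in control and 9.98, 9.25 and 16.2 FPKM after OGD/R. E530011L22Rik (ENSMUSG00000097820, chr9:121754662-121759943, minus strand) overlaps the 3′ UTR of Nktr, a cyclophilin-related gene, and had 10.2, 16.6 and 18.3 FPKM in control and 5.75, 6.84 and 8.54 FPKM after OGD/R. Gm45444 (ENSMUSG00000110197, chr7:45814022-45814919, plus strand), whose start is 559 nt from that of the cytohesin gene Cyth2, had 7.12, 11.6 and 5.69 FPKM in control and 4.30, 3.29 and 3.21 FPKM after OGD/R. These 3 loci fell 1.99-fold, 2.14-fold and 2.26-fold (limma adjusted p = 0.0065, 0.0067 and 0.0085), each without overlap between the groups.

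Gm45774 (ENSMUSG00000110588, chr8:94170748-94173412, minus strand) lies opposite Mt2, the gene of a metal-binding metallothionein, and its libraries were uneven. It had 36.8, 152 and 143 FPKM in control and 25.6, 27.8 and 51.2 FPKM after OGD/R, so the first control library lay below the third OGD/R library. It was called at a limma adjusted p of 0.044 with a log2 fold change of -1.46 ± 0.58 (SE). Without the first control library the log2 fold change was -2.12 (limma adjusted p = 0.0013), while leaving out the second or the third control library or the first or second OGD/R library gave -1.11, -1.15, -1.28 and -1.33 with adjusted p of 0.12, 0.13, 0.12 and 0.11. Testing only genes with a mean of at least 5 FPKM gave 0.053. Mt2 showed the same order, with 193, 700 and 666 FPKM in control and 107, 118 and 213 FPKM after OGD/R.

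Some loci of the opposite-strand class face only exons of genes not analysed here. The higher ones were Gm17133, Gm26669, Gm47958 and Gm28777, with control means of 3.44 to 13.9 FPKM and OGD/R means of 7.79 to 32.6 FPKM. The lower ones were Gm16104, Gm17110, Gm48933, Gm16124, Gm16573, 1700001G11Rik, Gm17092 and Gm45095, which fell 1.97-fold to 3.00-fold by the means. Gm26669 runs opposite nearly the whole length of Zfp36l1, an mRNA decay factor, with 92.5% of its exon bases on Zfp36l1 exons, and rose 2.14-fold (limma adjusted p = 0.0011). Gm16104 was called at an adjusted p of 0.047 by limma but at 0.12, 0.14, 0.11 and 0.13 without the second or the third control or the first or second OGD/R library, and at 0.055 and 0.075 with the filter at 5 FPKM and with voom. 1700001G11Rik, called at 0.02, was at a limma adjusted p of 0.053 without the first control library and of 0.052 after upper quartile scaling.

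Loci of the set also overlapped each other. On chromosome 6, Gm20559 (ENSMUSG00000106734, chr6:3333194-3346128, minus strand) had 9.43, 16 and 14.5 FPKM in control and 3.77, 4.15 and 4.75 FPKM after OGD/R. Gm43198 (ENSMUSG00000107222, chr6:3334633-3334958, plus strand), which lies wholly on a Gm20559 exon, had 25.2, 35.7 and 38.2 FPKM in control and 13.0, 9.78 and 13.1 FPKM after OGD/R. They fell 3.15-fold and 2.76-fold (limma adjusted p = 0.0006 and 0.00059), and Gm43197, inside the Gm20559 span, fell 3.71-fold (limma adjusted p = 0.00011) with 8.48 to 10.8 FPKM in control and 2.46 to 2.56 after OGD/R. All 3 separated the groups.

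The RefSeq promoter of Gm20559 (GRCm38.p6, chr6:3346092-3346391, minus strand) is shown because these loci moved together. Motifs were searched on both strands, and the capitals mark a CCAAT box and a TATAAA box, both read from the other strand:
Gm20559: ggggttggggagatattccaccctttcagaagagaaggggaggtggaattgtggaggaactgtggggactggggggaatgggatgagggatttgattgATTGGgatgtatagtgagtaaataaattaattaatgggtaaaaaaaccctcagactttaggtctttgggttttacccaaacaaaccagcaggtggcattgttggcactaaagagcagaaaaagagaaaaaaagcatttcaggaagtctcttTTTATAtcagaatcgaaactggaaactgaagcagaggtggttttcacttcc
RefSeq promoters were matched for 6 higher and 12 lower loci. CCAAT was in 1 of 6 and 4 of 12 of them, against 37.9% of all 27025 promoters, and TATAAA in 0 of 6 and 1 of 12, against 14.2%. CCACG was in 4 of 6 and 6 of 12 (32.7% of all promoters), ACGTG, which can share bases with it, in 2 of 6 and 1 of 12 (19.7%), TGACG in 1 of 6 and 3 of 12 (21%), and TTGCATC in 0 of 6 and 1 of 12 (2.51%). Among the 774 promoters matched to genes of the whole table, the shares were 45.1% for CCAAT, 9.3% for TATAAA and 43.5% for CCACG. They were 22.1% for ACGTG, 23.4% for TGACG and 3.23% for TTGCATC. These matches are descriptions of the letters only.

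On chromosome 13, 2010111I01Rik (ENSMUSG00000021458, chr13:62964893-63326096, plus strand), which RefSeq names Aopep, a gene of an aminopeptidase, had 4.83, 10.0 and 9.54 FPKM in control and 2.29, 2.34 and 4.01 FPKM after OGD/R. Gm16907 (ENSMUSG00000097242, chr13:63289601-63297147, minus strand) overlaps it by 90 nt on the other strand and had 7.71, 15.1 and 14.1 FPKM in control and 3.22, 4.54 and 5.23 FPKM after OGD/R. They fell 2.82-fold and 2.84-fold (limma adjusted p = 0.0066 and 0.0036), and the ratio of Gm16907 to 2010111I01Rik was 1.3 to 1.94. The exons of 2010111I01Rik also hold the miRNA genes Mir27b and Mir24-1, for which the FPKM of this locus is no measure.

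Among the near-copies, 7 of 17 were higher, 7 were lower and 3 were not called. On the log2(FPKM + 1) scale the largest rise, barely above that of Gm20412 at 2.98, was in Gm28438 (ENSMUSG00000101939, chr1:24612775-24613119, minus strand), the copy of mt-Nd3 that differs by 1 base. It had 26.9, 11.2 and 16.3 FPKM in control and 164, 163 and 108 FPKM after OGD/R, a rise of 7.99-fold (limma, log2 change 2.99 ± 0.32 SE, adjusted p = 0.00023). mt-Nd3 is a subunit gene of respiratory complex I. It was listed at only 2.62, 1.39 and 0.38 FPKM in control and 6.44, 4.41 and 5.64 FPKM after OGD/R. These values rest on 7, 4 and 1 units in control and 18, 13 and 17 after OGD/R. The nuclear copy was thus listed at 8.09 to 43.0 times the level of the mitochondrial gene it matches, the 43.0 resting on 1 unit of mt-Nd3.

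Next to Gm28438 on chromosome 1 lie Gm10925 and Gm28439, which match mt-Atp6 over 678 nt and mt-Nd4 over 876 nt without a difference (100% identity). Gm10925 (chr1:24613974-24614651, minus strand) had 45.0, 29.7 and 47.6 FPKM in control and 70.2, 85.3 and 111 FPKM after OGD/R, and rose 2.18-fold (limma adjusted p = 0.0039). Gm28439 (chr1:24611535-24612410, minus strand) had 9.98, 5.12 and 6.14 FPKM in control and 14.5, 19.7 and 9.35 FPKM after OGD/R. Here the groups overlapped, and the call (limma adjusted p = 0.025) was lost without the second or the third control or the first or second OGD/R library, at adjusted p of 0.073, 0.069, 0.067 and 0.076. The 9 mitochondrially encoded genes of the table, all called higher by limma, summed to 807 to 1490 FPKM in control and 1650 to 3000 FPKM after OGD/R. They are mt-Nd2, mt-Nd3, mt-Co3 and the short tRNA genes mt-Tq, mt-Tw, mt-Ty, mt-Te, mt-Tt and mt-Ta. FPKM of such short genes are hard to compare with those of longer ones, and mt-Atp6 and mt-Nd4 are not listed. The part of mitochondrially encoded RNA in the values of the 3 nuclear copies was not tested.

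Gm48990 (ENSMUSG00000115379, chr14:95285234-95285656, minus strand), the processed copy of Baz1a, had 4.93, 3.44 and 6.51 FPKM in control and 14.1, 14 and 13.6 FPKM after OGD/R. It rose 2.80-fold (limma, log2 change 1.36 ± 0.19 SE, adjusted p = 0.00063) with no overlap, on 12 to 21 units per control library. Baz1a, which encodes a subunit of chromatin remodelling complexes, rose from 14.9 ± 1.4 to 30.4 ± 2.17 FPKM (SD, n = 3). Gm7367, the processed copy of Ubald2 on chromosome 7, fell from 27.6 ± 4.25 to 8.89 ± 1.06 FPKM (SD, n = 3), called at a limma adjusted p of 0.00016, and Ubald2 on chromosome 11 fell from 47.9 ± 6.09 to 19.7 ± 5.03 FPKM.

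**Figure D4:**
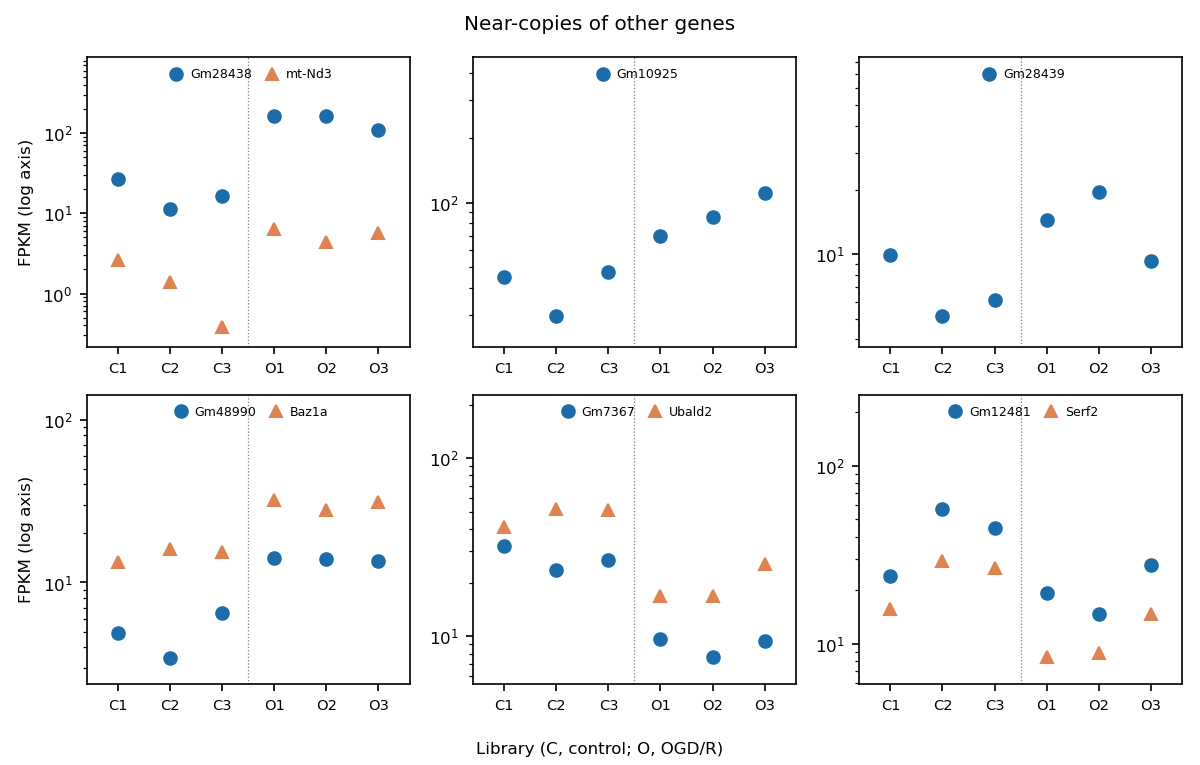
FPKM (log axes, each panel on its own scale) in the 6 libraries for 6 near-copies (circles) and, where listed, the gene they match (triangles). Gm28438 lies above mt-Nd3 in every library, and Gm48990, Gm7367 and Gm12481 move in the same direction as Baz1a, Ubald2 and Serf2.

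Serf2, which encodes a small protein known for promoting protein aggregation, shares bases with several listed loci. Gm12481 (ENSMUSG00000043770, chr4:43664043-43664339, plus strand) matches Serf2 over all 297 nt at 100% identity and lies wholly on Fam221b exons of the other strand. It had 24.2, 57.2 and 44.6 FPKM in control and 19.3, 14.7 and 27.6 FPKM after OGD/R, and the first control library lay below the third OGD/R library. The call, for a fall of 2.04-fold at a limma adjusted p of 0.034, was lost without the second or the third control or the first or second OGD/R library (0.097, 0.092, 0.084 and 0.11). Gm22953 (ENSMUSG00000080374, chr2:121450670-121450770, minus strand), annotated as a miRNA of 101 nt, lies wholly on Serf2 exons on the other strand, and 51.5% of it matches Fam221b at 100% identity. It was the most abundant of the 76 loci, at 276, 587 and 532 FPKM in control and 179, 139 and 394 FPKM after OGD/R, and was not called (limma adjusted p = 0.059).

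Serf2 had 15.8, 29.1 and 26.6 FPKM in control and 8.47, 8.94 and 14.7 FPKM after OGD/R, and Fam221b had 1.45, 3.33 and 3.09 FPKM in control and 0.82, 0.99 and 1.62 FPKM after OGD/R. Serinc4, whose span also covers Gm22953, had 10.2, 19.4 and 18.1 FPKM in control and 5.46, 4.90 and 7.94 FPKM after OGD/R. In each of these genes the first control library was the lowest of the controls and the third OGD/R library the highest after OGD/R, as in Gm12481 and Gm22953. Without the first control library Gm22953 had a log2 fold change of -1.38 (limma adjusted p = 0.025), and without the third OGD/R library -1.48 (adjusted p = 0.0092). Leaving out any other 1 library gave -0.73 to -0.91 (adjusted p = 0.15 to 0.18), and median scaling and voom gave adjusted p of 0.039 and 0.037. A limma model with a term for the replicate number gave 0.038, although whether these numbers pair libraries is not settled.

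Of the other near-copies, Gm13577, a copy of the chromatin protein gene Hmgb1, Gm5345, which matches the glycolytic gene Gapdh at 90.8%, and Gm42047 rose 2.54-fold, 2.41-fold and 2.14-fold by the means. Gm10073 and Gm11273, which match the genes of ribosomal protein Rplp1 and cytochrome oxidase subunit Cox5b, fell 2.69-fold and 2.86-fold, and Gm6088, at 93.3% identity to Ago2, fell 2.67-fold. Gm11273 lost its call (limma adjusted p = 0.024) without the second or the third control or the first or second OGD/R library, at 0.069, 0.07, 0.078 and 0.056. Gm1821, Gm10443 and Gm13841, copies of Ubb, Rps28 and Rpl29, were not called at limma adjusted p of 0.054, 0.15 and 0.1. Without the first control library these 3 were at adjusted p of 0.014, 0.0069 and 0.021, with Gm10443 moving from a log2 fold change of -0.89 to -1.49. Gm1821 was also called after median scaling (limma adjusted p = 0.044). With the term for the replicate number, Gm1821 and Gm10443 were at limma adjusted p of 0.038 and 0.034.

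The 6 small RNA loci have exons of 70 to 143 nt, shorter than a 150 nt read, which makes their FPKM hard to compare with those of longer genes. Gm22571 is annotated as a snoRNA, and lies in an intron of the ribosomal protein gene Rpl4. Its sequence is printed to show how little of it there is for a read to cover, with the letters ATGATGA and CTGA in capitals, as in the C and D boxes of the snoRNA class that guides methylation of ribosomal RNA:
Gm22571: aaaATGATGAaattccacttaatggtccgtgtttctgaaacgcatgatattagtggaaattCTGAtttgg
Gm22571 (ENSMUSG00000064918, chr9:64175873-64175942, plus strand) had 3.73, 12.1 and 0 FPKM in control and 19.6, 13.5 and 26.4 FPKM after OGD/R, from 2, 7 and 0 units against 11, 8 and 16. The groups did not overlap, with a limma log2 fold change of 2.35 ± 0.88 (SE) and an adjusted p of 0.036. The log2 fold change was 3.21 without the second control library and 1.35 without the third. Without the first control library, or any 1 of the OGD/R libraries in order, the limma adjusted p was 0.065, 0.083, 0.057 and 0.094. Pseudocounts of 0.1 and 0.01 gave 0.078 and 0.12, and the term for the replicate number gave 0.052.

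Gm22079 (ENSMUSG00000088217, chr12:108862564-108862669, minus strand), annotated as an snRNA in an intron of the tryptophanyl-tRNA synthetase gene Wars, had 4.92, 25.2 and 23.5 FPKM in control and 2.35, 4.46 and 4.35 FPKM after OGD/R. It was called lower (limma log2 fold change -1.76 ± 0.59 SE, adjusted p = 0.023) on 2 to 22 units, and the log2 fold change was -2.46 without the first control library. Without the second or the third control or the first OGD/R library the limma adjusted p was 0.068, 0.073 and 0.075. Wars had no such low first control library, at 170, 159 and 155 FPKM in control and 75.3, 76.8 and 74.4 FPKM after OGD/R.

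Gm25238 and Gm44325, annotated as miRNAs, lie wholly opposite exons of Cacul1 and Tmem62. Gm25238 (ENSMUSG00000092655, chr19:60580529-60580617, plus strand) had 122, 98.1 and 86.9 FPKM in control and 58.8, 51.8 and 27.2 FPKM after OGD/R (2.23-fold lower, limma adjusted p = 0.0073). Gm44325 (ENSMUSG00000105465, chr2:120977651-120977727, minus strand) had 20.3, 9.45 and 17.0 FPKM in control and 1.62, 7.67 and 3.00 FPKM after OGD/R (3.81-fold lower, limma adjusted p = 0.0088), on 1 to 12 units. Both separated the groups. Gm44330, another such locus, wholly opposite an exon of Adgrl1, rose 2.83-fold by the means on 4 to 25 units (limma adjusted p = 0.015).

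Of the 8 loci annotated as protein-coding outside the near-copies, 3 were higher and 5 were lower, and none had overlapping groups. RefSeq now names C330027C09Rik as Cip2a, an inhibitor of protein phosphatase 2A, D330045A20Rik as Radx, which binds single-stranded DNA at replication forks, and 1190002N15Rik as Dipk2a. C330027C09Rik rose from 11.1 ± 1.07 to 27.2 ± 1.39 FPKM, D330045A20Rik from 5.54 ± 0.327 to 13.2 ± 1.10 FPKM and 1190002N15Rik from 4.27 ± 1.09 to 10.6 ± 1.07 FPKM (SD, n = 3). Their limma adjusted p values were 0.00013, 0.00016 and 0.0007. The lower ones were 4930438A08Rik, 6430548M08Rik, Gm16181, 2010111I01Rik and Gm9887, which fell 2.03-fold to 2.82-fold by the means.

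Among the 10 other non-coding loci, Gm29126 (ENSMUSG00000099600, chr15:74953330-74953480, minus strand), an unprocessed pseudogene of 151 nt, had 3.46, 1.61 and 0.87 FPKM in control and 5.77, 8.60 and 9.94 FPKM after OGD/R. Its rise of 4.09-fold (limma, log2 change 1.68 ± 0.34 SE, adjusted p = 0.0031) rests on 1 to 4 units in control and 7 to 13 after OGD/R, per library. E230016K23Rik starts within 5 kb of the chemokine gene Ccl9 and rose 2.33-fold by the means (limma adjusted p = 0.0028), with Ccl9 at 5.10 to 5.94 FPKM in control and 14.4 to 15.4 FPKM after OGD/R. Gm48783 and 4833427F10Rik rose 2.41-fold and 2.44-fold by the means, and Gm32856 and Gm26917 fell 2.02-fold and 2.10-fold. Gm26917 was at a limma adjusted p of 0.011, and of 0.053 after upper quartile scaling.

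2410006H16Rik (ENSMUSG00000086841, chr11:62602877-62604807, plus strand) is a spliced non-coding RNA whose span holds the snoRNA genes Snord49b, Snord49a and Snord65. On the log2(FPKM + 1) scale its fold change was the second largest among the lower loci, and it was not called: 13.0, 108 and 85.7 FPKM in control and 5.39, 8.44 and 34.7 FPKM after OGD/R, with a log2 fold change of -1.98 ± 0.95 (SE; limma adjusted p = 0.08). The first control library lay below the third OGD/R library. Without the first control library the log2 fold change was -2.91 (limma adjusted p = 0.01), and without the third OGD/R library -2.71 (adjusted p = 0.03). With all libraries kept and the term for the replicate number, the limma adjusted p was 0.016. The 8 named long non-coding RNAs of the table, which include the snoRNA hosts Snhg5, Snhg8 and Snhg12, summed to 25.8, 86.8 and 82.6 FPKM in control and 15.6, 14.1 and 41.4 FPKM after OGD/R, again with the first control library lowest in its group and the third OGD/R library highest. Of the 6 of them that were tested, 0 were called higher and 3 lower by limma.

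**Figure D5:**
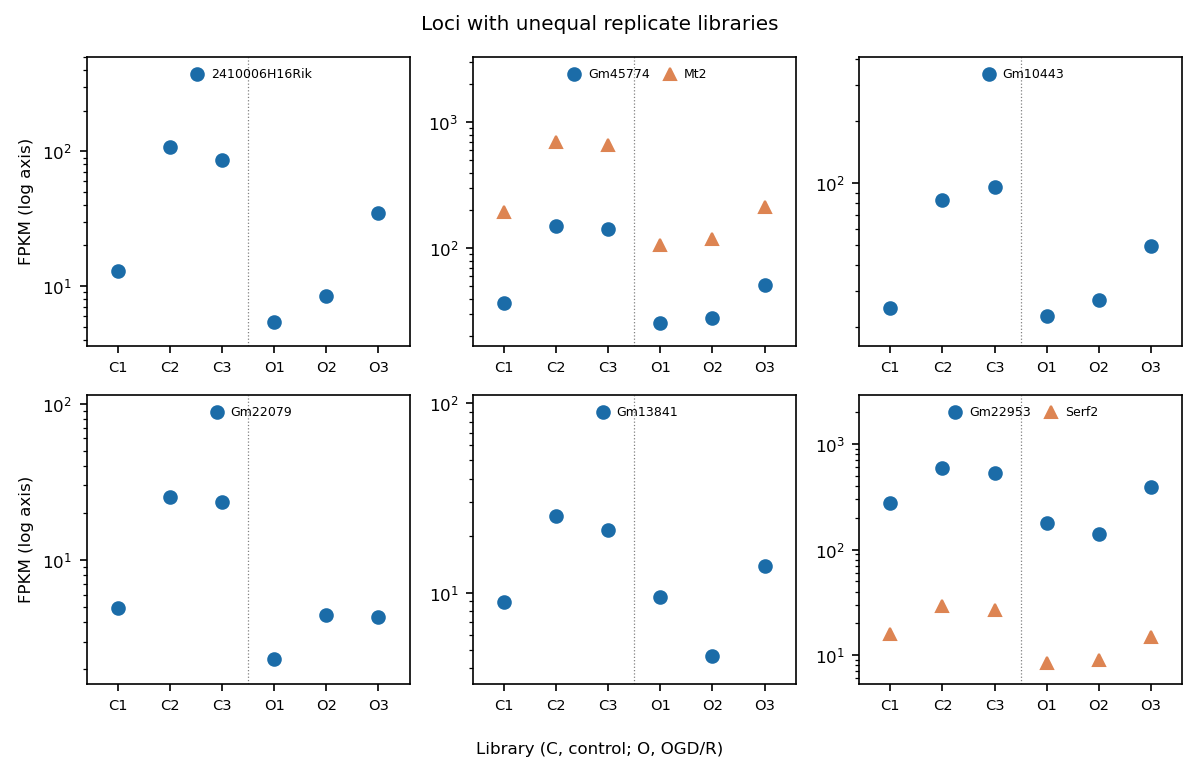
FPKM (log axes, each panel on its own scale) in the 6 libraries for 6 loci whose replicates were unequal (circles), with Mt2 and Serf2 where they overlap (triangles). In every panel the first control library is the lowest control, and in 5 of 6 panels the third OGD/R library is the highest after OGD/R; in Gm22079 the second is.

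Over all 76 loci, the first control library was the lowest control in 34 and the highest in 26, and the third OGD/R library was the highest after OGD/R in 34 and the lowest in 27. With both left out, a choice made after seeing the data, 73 of the 76 loci were called by limma, 24 higher and 49 lower. The fold change, taken off the log scale, then moved by over 1.5 times in these loci: the log2 fold change went to -0.56 in 1700001G11Rik, -1.99 in Gm11273, -1.66 in Gm13841 and -1.82 in Gm22953, besides the loci already named as moving with 1 library. Gm44325 and Gm44330 were then at limma adjusted p of 0.066 and 0.091. RNA from whole cultures was measured, so a smaller share of cells with a transcript and less of it per cell cannot be told apart. Whether the unequal libraries differ in RNA quality, culture or preparation was not tested.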

How the data were processed

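RNA from 3 control and 3 OGD/R samples of Bv2 cells was sequenced as pairs of 150 nt reads, per the labels' protocols. The authors deposited FPKM for 1228 genes; the submitters' processing notes name GRCm38 as build. Aligner, counter, annotation and the choice of genes: not given in the sources used here. GENCODE M21 (GRCm38) held 1227 of the 1228 gene IDs and gave types, exons and overlaps. Library sizes came from the steps between low FPKM values: 96.7% to 100.0% of these became whole units (tolerance 0.03 units beyond rounding).

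Genes with a mean of at least 1 FPKM were tested over the whole table with limma 3.58.1 (R 4.3.3) on log2(FPKM + 1). The model held group alone, eBayes used a trend, tests were two-sided, and p-values were adjusted by Benjamini-Hochberg over 852 genes (threshold 0.05); fold changes on that scale understate the change of low genes. The fit was also run on simulated data with independent noise. That run does not test calls among genes that may have been picked on the same libraries. Near-copies were found with blastn 2.17.0 against GENCODE transcripts, and promoters are from RefSeq tables. Loci described in full were the 8 with the highest mean, the 8 largest rises, the 8 largest falls and those whose exons overlap another listed gene; the others are given by range or as examples chosen after their values were seen, and the values and match of 1 near-copy are not reported here in words. Members and lists were chosen with earlier results of these data known. Alternatives covered the pseudocount, the filter, scaling, no trend or a robust eBayes, leaving out each library, a replicate block, voom on the recovered units and other minimum levels.

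Of the marker lists, the table held 2 of 12 microglial genes (1 tested and called higher), 1 of 5 neuronal, 0 of 5 astrocyte, 1 of 5 oligodendrocyte, 1 of 7 endothelial or fibroblast (Vwf, called lower) and 0 of 4 lymphocyte or granulocyte genes. Of 5 histone genes 3 were tested, 1 higher and 2 lower. Of the long non-coding RNAs listed by name, 8 of 59 were present. A search by name for other non-polyadenylated RNAs, such as names starting Snor, Scarna or Rnu, found 0. It misses loci with provisional names, such as Gm22571, annotated as a snoRNA, and Gm22079, annotated as an snRNA.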

Additional observations from a re-analysis of the deposited data

How the results depend on the processing

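As reported, limma called 71 of 76 loci, 26 higher and 45 lower, 55 of them at least 2-fold. Here 2-fold is read from the fitted log2 fold change of each setting, not from the group means. A minimum of 2 FPKM gave 146 loci with 138 called (58 higher, 80 lower, 87 at least 2-fold), and a minimum of 10 FPKM gave 41 with 37 called (12 higher, 25 lower, 31 at least 2-fold); these counts follow from how many loci enter. Leaving out each library in turn gave 64 to 74 calls, 24 to 25 higher, 40 to 49 lower and 50 to 58 at least 2-fold. Deviations from the group mean correlated at 0.428, -0.349 and 0.375 between same-numbered libraries. Between differently numbered libraries the correlations ran from -0.628 to 0.479, so these values do not settle whether the numbers pair libraries. With the replicate block 74 loci were called, 25 higher and 49 lower, 56 at least 2-fold. Pseudocounts of 0.1 and 0.01 gave 70 calls each, with 64 and 67 at least 2-fold, voom on recovered units gave 71 with 68, median scaling 73 with 53, and upper quartile scaling 68 with 50. In all 17 alternatives 59 of the 76 loci kept their direction and their side of the threshold, 12 lost a call in at least 1, 5 gained one, and 0 reversed. Depth limits the short loci most: 13 had under 10 units in some library.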
